A study of Homo sapiens with 12 samples.

Results

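The hypoxia response and glycolysis genes are 40 genes, named by symbol, out of 25049 genes in a table of RNA counts from MDA-MB-231b cells, a bone-tropic derivative of the triple-negative breast cancer line MDA-MB-231 obtained by passage through the bone of nude mice. They were taken from the table by symbol and comprise 5 genes of the hypoxia-inducible factor (HIF) machinery, 3 transporters, 10 genes of upper and 8 of lower glycolysis and pyruvate use, 4 matrix enzymes, 2 mitophagy receptors, 4 genes of secreted factors and pH, and 4 other HIF targets. All 40 were in the table and all 40 passed the filter on low counts.

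Cells labelled WT and cells labelled GLI2_KO (here KO) were each kept in DMSO or in paclitaxel, which makes 4 groups of 3 samples. Paclitaxel, a drug that stabilises microtubules, was given at 50 nM for 2 days in complete medium, and DMSO is its solvent. The KO was made with Cas9 and a lentiviral guide against GLI2, a transcription factor of the Hedgehog pathway. A non-targeted guide is also described, without a statement of which libraries carry it, nor whether the KO line is 1 clone. All cells grew in DMEM with 4.5 g/L glucose, and no oxygen level is given. Nothing states that the replicates were separate cultures, so the p-values rest on sample spread that may be technical in origin.

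In cells with ample oxygen, prolyl hydroxylases mark the HIF alpha subunits for destruction by the VHL ubiquitin ligase. When oxygen is low the alpha subunits persist, pair with ARNT and bind short DNA sites near genes for glucose uptake, glycolysis, lactate export, blood vessel growth and mitophagy. Cancer cells often run glycolysis strongly even with oxygen present, and since HIF alpha is controlled mainly as a protein, its RNA is not a measure of its activity.

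The HIF recognition site has the core letters ACGTG or GCGTG, so promoters of 6 members are shown. With the main scaling of counts (TMM), RNA was lower in paclitaxel in both genotypes for 3 (LDHA, PGK1 and BNIP3). It was higher in both for the other 3 (ALDOC, LOX and ADM). The WT calls of LDHA, PGK1 and BNIP3 were not made with 2 other scalings, upper-quartile factors and library totals. Each sequence is the 250 bases before the RefSeq start on GRCh38.p14, written 5′ to 3′ on the strand of the gene. Capitals mark ACGTG and GCGTG on either strand, so that a match on the opposite strand reads CACGT or CACGC.
LDHA, lactate dehydrogenase A, chr11:18394313-18394562, plus strand: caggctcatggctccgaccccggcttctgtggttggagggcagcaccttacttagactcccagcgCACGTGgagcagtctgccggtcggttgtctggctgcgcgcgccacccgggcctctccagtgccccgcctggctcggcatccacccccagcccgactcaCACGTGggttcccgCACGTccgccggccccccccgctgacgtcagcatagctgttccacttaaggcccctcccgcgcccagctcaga
PGK1, phosphoglycerate kinase, chrX:78103998-78104247, plus strand: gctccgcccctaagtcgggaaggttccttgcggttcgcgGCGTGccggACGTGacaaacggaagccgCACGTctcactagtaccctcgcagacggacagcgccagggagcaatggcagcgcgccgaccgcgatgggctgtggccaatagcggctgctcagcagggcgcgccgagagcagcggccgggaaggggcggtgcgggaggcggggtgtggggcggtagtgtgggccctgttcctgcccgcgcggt
BNIP3, a mitophagy receptor, chr10:131981924-131982173, minus strand: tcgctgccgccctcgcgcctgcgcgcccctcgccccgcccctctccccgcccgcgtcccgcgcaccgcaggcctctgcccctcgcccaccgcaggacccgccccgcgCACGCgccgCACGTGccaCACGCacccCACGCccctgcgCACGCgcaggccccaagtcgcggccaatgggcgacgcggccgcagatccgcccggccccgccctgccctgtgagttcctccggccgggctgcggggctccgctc
ALDOC, aldolase C, chr17:28576896-28577145, minus strand: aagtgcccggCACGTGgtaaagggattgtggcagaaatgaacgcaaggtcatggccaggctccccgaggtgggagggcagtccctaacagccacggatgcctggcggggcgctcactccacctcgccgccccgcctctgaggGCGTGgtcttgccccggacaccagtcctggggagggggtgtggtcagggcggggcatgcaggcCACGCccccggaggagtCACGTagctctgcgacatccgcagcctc
LOX, lysyl oxidase, chr5:122078260-122078509, minus strand: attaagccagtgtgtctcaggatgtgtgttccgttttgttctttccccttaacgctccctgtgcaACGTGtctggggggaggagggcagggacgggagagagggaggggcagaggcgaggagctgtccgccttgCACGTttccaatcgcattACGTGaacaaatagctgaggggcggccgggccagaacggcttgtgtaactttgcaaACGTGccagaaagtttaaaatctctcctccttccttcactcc
ADM, the precursor of the peptide adrenomedullin, chr11:10304823-10305072, plus strand: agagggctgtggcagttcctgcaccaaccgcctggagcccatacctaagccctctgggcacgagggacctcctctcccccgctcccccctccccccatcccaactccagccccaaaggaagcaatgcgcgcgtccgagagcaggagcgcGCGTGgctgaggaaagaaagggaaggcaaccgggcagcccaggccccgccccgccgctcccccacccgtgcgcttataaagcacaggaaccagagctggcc

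LDHA held 5 matches, counted over both strands, with 2 palindromic CACGTG runs that each give 2 of them. BNIP3 held 6 matches, ALDOC 5, LOX 4, PGK1 3 and ADM 1. RefSeq promoters were matched for 36 of the 40 members. ACGTG occurred in 17 of the 36 (47.2%), against 18.5% of 34788 promoter windows of this length. GCGTG occurred in 12 of the 36 (33.3%), against 32.2% of all windows. Either core occurred in 24 of the 36 (66.7%), against 43.1% of all windows. Directions here are those of the main scaling, on which some of the lower calls depend. Of the members higher in paclitaxel in both genotypes, 6 of the 7 with a promoter held a core, and of those lower in both, 9 of 15 did. Promoters with and without the letters thus occurred among genes that moved either way. A match is a run of letters and not a bound site.

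Library totals lay between 83230948 and 109018776 counts. The 40 genes together took 1.04% to 1.24% of the counts of a library. Within groups, the largest chi-square per degree of freedom between replicates (12.4 and 16.2) belonged to the KO sample numbered 3 in DMSO. Values of 10.7 and 6.63 for KO paclitaxel replicate 3, and of 10.4 and 7.7 for WT DMSO replicate 2, came next. GLI2 RNA, in CPM (counts scaled for library size), was at 10.4, 11.4 and 10.6 in WT DMSO, 6.42, 5.65 and 4.97 in WT paclitaxel, 9.28, 8.23 and 10.1 in KO DMSO and 3.97, 4.14 and 4.39 in KO paclitaxel. GLI2 RNA was thus still present in the KO, at a log2 fold change of -0.23 in DMSO (adjusted p = 0.0253) and -0.44 in paclitaxel (adjusted p = 0.000243), and a guide need not remove the RNA. The lineage markers VIM, CD44, AXL and EGFR lay between 248 and 2940 CPM in every sample. Of the genes low in triple-negative tumours, ERBB2 was at 43.8 to 58.4 CPM and GATA3 at 3.32 to 8.35. PGR was at 0 to 0.0113 CPM in WT samples, 2.18 to 2.98 in KO DMSO and 0.716 to 0.953 in KO paclitaxel. Of these 3 genes, 2 passed as higher in the KO in DMSO and 3 in paclitaxel. Summed immune markers (PTPRC and LYZ) reached 0.0452 to 0.11 CPM in WT DMSO, 0.144 to 0.203 in WT paclitaxel, 0.282 to 0.397 in KO DMSO and 0.647 to 1.01 in KO paclitaxel. Summed endothelial markers (PECAM1, VWF and CDH5) lay at 0.391 to 0.705, 1.3 to 1.35, 0.828 to 1.13 and 1.77 to 1.87 CPM in the same order. Fibroblast markers (COL1A1 and PDGFRA) summed to 7.51 to 8.36, 9.09 to 10.8, 5.95 to 7.27 and 11 to 12.3 CPM. These low levels therefore moved with both treatment and genotype, and their part in the results was not tested.

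Levels are CPM, counts scaled for library size with TMM factors, and ± gives the standard error on the log2 scale. Genes passed at an adjusted p below 0.05 in edgeR's quasi-likelihood test, with Benjamini-Hochberg adjustment over all 21974 genes tested. In bulk RNA a change in the number of cells of a state and a change in RNA per cell cannot be told apart.

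Compared per kilobase of exon in WT DMSO, the 6 highest members were glycolytic enzymes. The length used is that of all annotated exons merged, such as 2700 bases for TPI1, 8571 for PKM and 14431 for VEGFA. Since a transcript can be shorter than that, the order depends on the annotation. GAPDH was at 1280 CPM per kilobase, TPI1 at 299, PKM at 211, PGAM1 at 165, PGK1 at 142 and LDHA at 141. PGK1 and LDHA could not be ordered, since their difference was within the spread of the samples. Some regulators and hypoxia markers lay far below, with VEGFA at 3.92, EPAS1 at 2.99, NDRG1 at 1.99 and EGLN3 at 0.664 CPM per kilobase. Others were higher, with HIF1A at 47.6 (place 8), SLC2A1 at 46.4, BNIP3 at 27.4 and ADM at 12.5 CPM per kilobase. CA9, the membrane carbonic anhydrase widely used as a hypoxia marker, was the lowest of the 40 in all 4 groups, at 0.0868 CPM per kilobase in WT DMSO. ADM moved furthest up this order, from place 20 in WT DMSO to place 9 in WT paclitaxel.

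**Figure D1:**
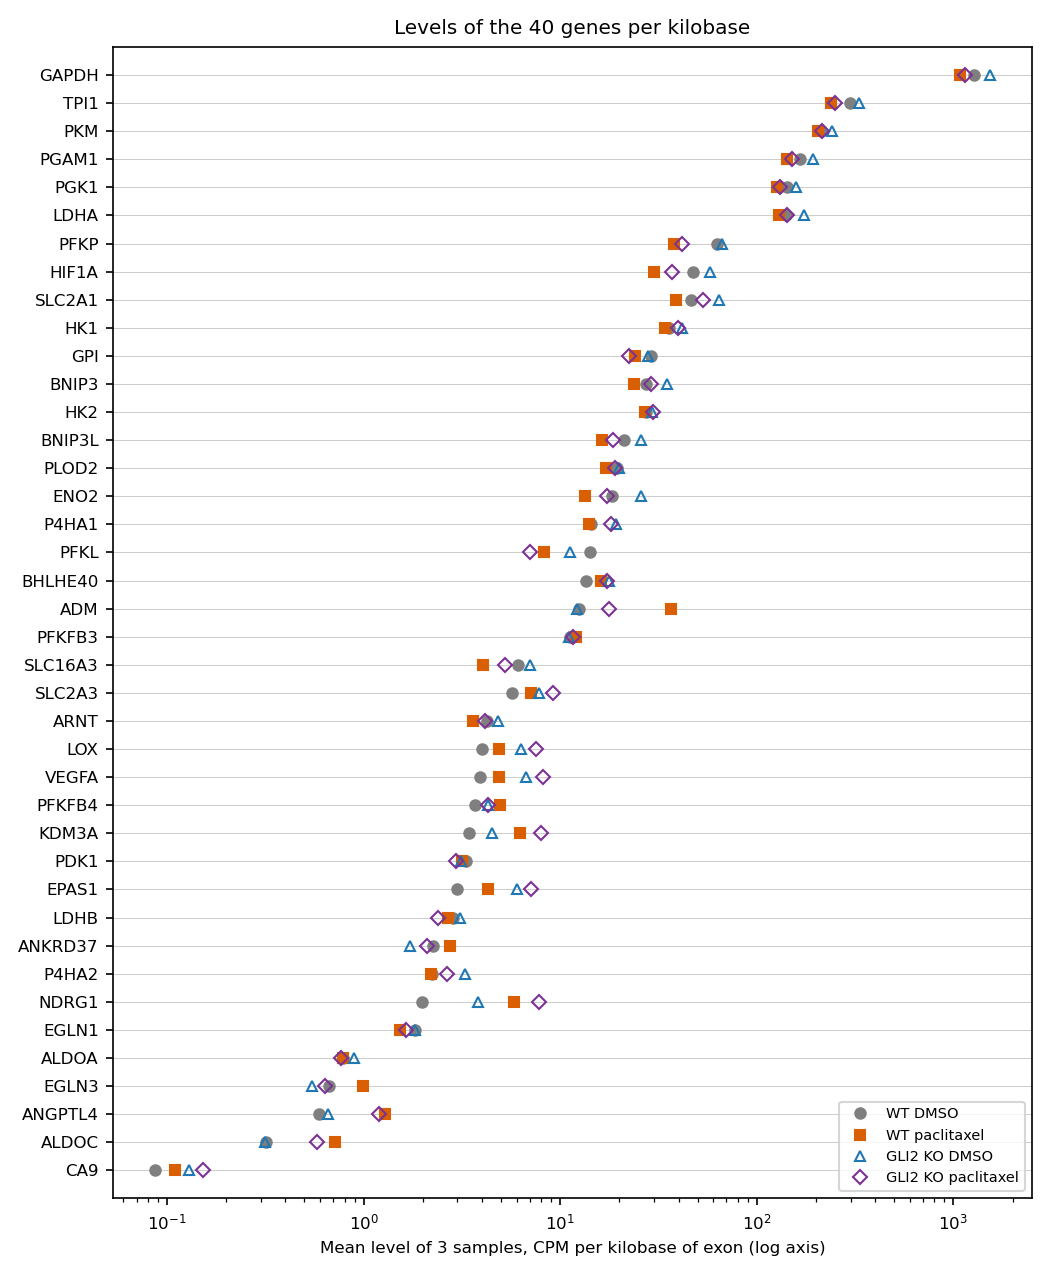
Mean level of each of the 40 genes in the 4 groups, in CPM per kilobase of exon on a log axis, with 1 symbol per group (means of 3 samples). GAPDH is at the top and CA9 at the bottom in every group, and ADM in WT paclitaxel lies to the right of its other 3 symbols.

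Some levels carry a limit from shared sequence. ALDOA, the main muscle and tumour aldolase, was counted at only 2.74 to 3.54 CPM, and 53.5% of its exon bases also belong to another annotated gene on the same strand (AC093512.2). LDHB, the heart type lactate dehydrogenase, was at 6.32 to 10 CPM and shared 33.4% of its exon bases with AC010197.2. CA9 shared 38.5% of its exon bases with ARHGEF39 and ANKRD37 35.2% with UFSP2, both on the opposite strand, and whether counting used strand is not given. By name, GAPDH has 62 pseudogenes in the annotation, BNIP3 has 39 and PGAM1 has 13, so reads may be split among copies.

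Paclitaxel moved members in both directions. Of the 14 members among the matrix enzymes, mitophagy receptors, secreted factors and other targets, 7 were higher in both genotypes (ADM, ANGPTL4, ANKRD37, KDM3A, LOX, NDRG1 and VEGFA) and 2 were lower in both (BNIP3 and BNIP3L). HIF1A, the transporters SLC2A1 and SLC16A3, the phosphofructokinases PFKP and PFKL, and GAPDH and TPI1 were lower in both genotypes. The share of all genes called the same way in both genotypes was not counted, so these joint counts only describe the members. In WT cells 14 members were higher, 17 were lower and 9 did not pass, where 66.7% of all genes tested passed, 34.6% higher and 32.1% lower. In KO cells 10 were higher, 21 were lower and 9 did not pass, where 65.2% of all genes passed, 33% higher and 32.2% lower. The member medians were -0.05 in WT and -0.12 in KO, beside 0.03 and 0.02 over all genes. The share of members passing was thus near that of all genes in both genotypes, except for more lower calls in the KO. Values of the 3 samples did not overlap between treatments for 32 members in WT (71.5% of all genes) and 30 in KO (67.2%).

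These paclitaxel calls depend on scaling, since upper-quartile factors and library totals raised the median of all genes by 0.134 and 0.157 in WT and by 0.123 and 0.177 in KO. All 14 higher calls in WT and all 10 in KO were made under all 4 scalings. The lower calls made under all 4 numbered 10 in WT (BNIP3L, ENO2, GAPDH, GPI, HIF1A, PFKL, PFKP, SLC16A3, SLC2A1 and TPI1). In KO cells 16 were (those 10 and BNIP3, LDHA, LDHB, P4HA2, PGAM1 and PGK1). Each lower call outside these lists was not made under at least 1 of the other 3 scalings.

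**Figure D2:**
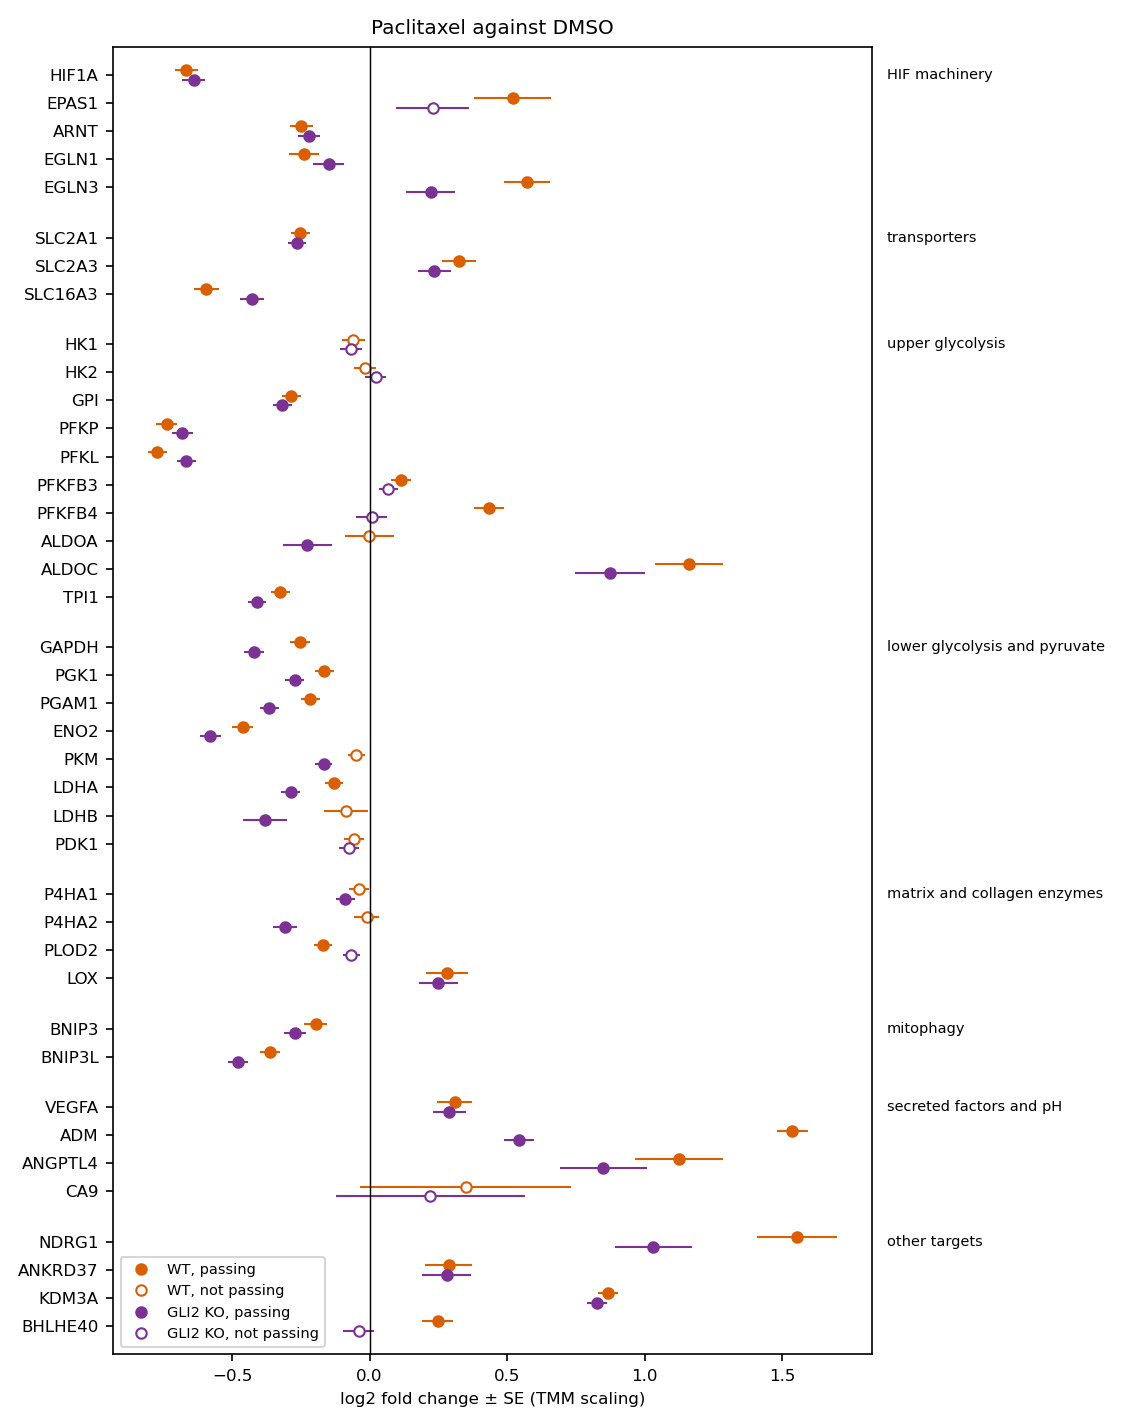
Log2 fold change of paclitaxel against DMSO for each of the 40 genes, ordered by role, in WT (orange) and GLI2 KO cells (purple), with bars of 1 standard error and filled points for genes that passed. Genes of lower glycolysis lie at or left of 0, and ADM and NDRG1 lie furthest right in WT cells.

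HIF1A encodes the alpha subunit present in most cells. It was at 243, 251 and 243 CPM in WT DMSO and at 158, 153 and 153 CPM in WT paclitaxel. In KO cells it was at 284, 283 and 322 CPM in DMSO and at 193, 182 and 195 CPM in paclitaxel. Every paclitaxel sample was below every DMSO sample of either genotype, and every KO sample was above the WT samples of its treatment. HIF1A fell by 0.67 ± 0.04 on the log2 scale in WT (adjusted p = 7.92e-12) and by 0.64 ± 0.04 in KO (adjusted p = 1.37e-11).

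EPAS1 encodes HIF-2 alpha, a second oxygen-controlled subunit. It was at 20.9, 24.1 and 20.5 CPM in WT DMSO and at 32, 30.4 and 31.3 CPM in WT paclitaxel. In KO cells it was at 39.2, 37.5 and 55 CPM in DMSO and at 52.8, 51 and 50.9 CPM in paclitaxel. The groups overlapped between treatments only in the KO, through DMSO replicate 3. EPAS1 rose by 0.52 ± 0.14 in WT (adjusted p = 0.0101), and its value in KO was 0.23 ± 0.13 (adjusted p = 0.162). Without KO DMSO replicate 3 the KO value of EPAS1 was 0.42 and passed (adjusted p = 1.41e-08), and with library totals it was 0.405 and passed (adjusted p = 0.0295).

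ARNT, the common partner of the alpha subunits, fell by 0.25 in WT and by 0.22 in KO under TMM. The prolyl hydroxylases moved apart. EGLN1, the main oxygen sensor, was at -0.24 in WT and -0.15 in KO under TMM, while the second value became 0.03 with library totals and lost its call without KO paclitaxel replicate 2 or 3 (-0.141 and -0.11). EGLN3, a hydroxylase that is itself HIF-induced, was at 4.98, 5.22 and 4.48 CPM in WT DMSO and 7.29, 6.97 and 7.58 CPM in WT paclitaxel. KO samples were at 3.6, 3.76 and 4.62 CPM in DMSO and 4.79, 4.48 and 4.74 CPM in paclitaxel. The WT groups were separate and the KO groups overlapped. EGLN3 rose by 0.57 ± 0.08 in WT (adjusted p = 1.71e-06) and by 0.22 ± 0.09 in KO (adjusted p = 0.0323), and the KO call was lost without any 1 of KO DMSO replicates 1 and 2 and KO paclitaxel replicates 1 and 3.

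The transporters divided as well. SLC2A1, the basal glucose transporter GLUT1, was at 217, 222 and 217 CPM in WT DMSO and at 187, 179 and 185 CPM in WT paclitaxel. Its KO values were at 308, 300 and 298 CPM in DMSO and at 264, 254 and 236 CPM in paclitaxel. Each KO sample was above all 6 WT samples, and each paclitaxel sample was below the DMSO samples of its genotype. SLC2A1 fell by 0.25 ± 0.03 in WT and by 0.26 ± 0.03 in KO. SLC2A3, the high-affinity transporter GLUT3, was at 35.7, 32.1 and 36.9 CPM in WT DMSO and at 43.8, 44.9 and 42.7 CPM in WT paclitaxel. It rose by 0.33 ± 0.06 in WT and by 0.24 ± 0.06 in KO, with no overlap between treatments in either. SLC16A3, the lactate exporter MCT4, went from 54, 58.3 and 52.2 CPM to 36.3, 35.8 and 36.8 CPM in WT. All treated WT samples were thus below the untreated ones, and SLC16A3 fell by 0.59 ± 0.05 in WT and by 0.43 ± 0.05 in KO.

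Upper glycolysis turns glucose into triose phosphates. Of its 10 members, 3 were higher and 4 lower in WT, and 1 was higher and 5 lower in KO, under TMM. Beside these counts, 34.6% of all genes were higher and 32.1% lower in WT, and 33% and 32.2% in KO. PFKP and PFKL, subunits of phosphofructokinase, which catalyses the committed step, fell most. PFKP was at 308, 307 and 298 CPM in WT DMSO and at 185, 176 and 186 CPM in WT paclitaxel. For KO cells it was at 327, 331 and 312 CPM in DMSO and at 213, 205 and 187 CPM in paclitaxel. Treated and untreated samples were far apart in both genotypes, with log2 fold changes of -0.74 ± 0.04 and -0.68 ± 0.04 (adjusted p = 7.73e-14 and 2.54e-13). PFKL was at 129, 124 and 124 CPM in WT DMSO and at 75.8, 73.8 and 71.1 CPM in WT paclitaxel. In KO it was at 101, 102 and 95.6 CPM in DMSO and at 65.7, 62.6 and 60 CPM in paclitaxel. All 4 groups were separate, and PFKL fell by 0.77 ± 0.035 in WT (adjusted p = 2.89e-15) and by 0.67 ± 0.04 in KO.

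GPI, which converts glucose 6-phosphate to fructose 6-phosphate, was at -0.28 and -0.32 and TPI1, which interconverts the triose phosphates, at -0.32 and -0.41 (WT, then KO). Both passed in both genotypes. The hexokinases HK1 and HK2, which trap glucose in the cell, did not pass in either under TMM with all samples. HK1 in KO passed at -0.129 (adjusted p = 0.00128) without KO DMSO replicate 3, and with library totals HK1 passed as higher, at 0.098 in WT and 0.111 in KO. HK2 was between 161 and 188 CPM in all 12 samples, with log2 fold changes of -0.015 ± 0.04 in WT and 0.02 ± 0.04 in KO, but it passed as higher with upper-quartile factors (0.118 and 0.145) and with library totals (0.141 and 0.199). PFKFB3, a bifunctional enzyme that makes the activator of phosphofructokinase, was higher in WT by 0.11 (adjusted p = 0.00586) and at 0.07 in KO, where it did not pass under TMM (difference -0.05 ± 0.05, adjusted p = 0.609). The KO value of PFKFB3 passed with upper-quartile factors (0.191), library totals (0.245), a minimum count of 50 (0.128) or without KO DMSO replicate 1 (0.097). ALDOC, an aldolase best known from brain, was at 0.966, 0.977 and 0.858 CPM in WT DMSO and at 2.08, 2.06 and 2.13 CPM in WT paclitaxel. KO samples were at 0.923, 0.85 and 1 CPM in DMSO and at 1.58, 1.8 and 1.7 CPM in paclitaxel. Every treated sample was above every untreated one, and ALDOC rose by 1.16 ± 0.12 in WT and by 0.87 ± 0.13 in KO from a low level.

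Lower glycolysis turns triose phosphates into pyruvate and lactate. Under TMM none of its 8 members was higher in either genotype, 5 were lower in WT and 7 in KO. Of all genes tested, 34.6% were higher and 32.1% lower in WT, and 33% and 32.2% in KO. GAPDH, which makes the NADH of glycolysis, was at 3900, 3740 and 3820 CPM in WT DMSO and at 3190, 3200 and 3220 CPM in WT paclitaxel. Its KO values were at 4750, 4620 and 4370 CPM in DMSO and at 3550, 3470 and 3240 CPM in paclitaxel. The KO DMSO samples were the highest and each treated sample was below all untreated ones. GAPDH fell by 0.25 ± 0.04 in WT (adjusted p = 1.74e-06) and by 0.42 ± 0.04 in KO (adjusted p = 3.55e-10).

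ENO2, the neuronal enolase, went from 80.5, 75.4 and 80.8 CPM to 59.1, 57.7 and 55.2 CPM in WT and from 113, 112 and 107 CPM to 77.5, 75.3 and 69.9 CPM in KO. The treated and untreated samples were separate in each genotype, and ENO2 fell by 0.46 ± 0.04 in WT and by 0.58 ± 0.04 in KO. LDHA, which reduces pyruvate to lactate, was at 892, 850 and 878 CPM in WT DMSO and at 794, 817 and 786 CPM in WT paclitaxel. For KO cells it was at 1100, 1100 and 1030 CPM in DMSO and at 909, 890 and 844 CPM in paclitaxel. LDHA fell by 0.29 ± 0.03 in KO under TMM, and it was called lower there under all 4 scalings. The WT value of LDHA was -0.13 ± 0.03 under TMM (adjusted p = 0.00184). This WT value became 0.004 with upper-quartile factors, 0.03 with library totals and -0.06 with a minimum count of 50, and did not pass there. PGK1, which makes the first ATP of the pathway, was at -0.165 in WT and -0.27 in KO, and PGAM1, the phosphoglycerate mutase, at -0.22 and -0.36. Their KO calls were made under all 4 scalings and their WT calls were not. PKM, the pyruvate kinase, was at -0.05 ± 0.03 in WT (adjusted p = 0.165) and -0.17 ± 0.03 in KO (adjusted p = 3.2e-05), and these values became 0.11 and 0.01 with library totals. PDK1, the kinase that closes pyruvate dehydrogenase and a HIF target, was at -0.06 in WT and -0.08 in KO and did not pass. With library totals PDK1 passed as higher in both, at 0.10 (adjusted p = 0.0177 in WT and 0.0162 in KO). The KO value of PDK1 passed without WT DMSO replicate 2 (-0.083), KO DMSO replicate 3 (-0.094) or KO paclitaxel replicate 2 (-0.108), and with no filter (-0.085).

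The mitophagy receptors are HIF targets that mark mitochondria for removal. BNIP3 was at -0.20 ± 0.04 in WT, a call that was not made under all scalings, and fell by 0.27 ± 0.04 in KO. BNIP3L went from 91.6, 89.2 and 91 CPM to 70.4, 73.3 and 67.9 CPM in WT and from 107, 109 and 118 CPM to 82.8, 79.9 and 77.1 CPM in KO. Treatment separated all samples, and BNIP3L fell by 0.36 ± 0.04 in WT and by 0.48 ± 0.04 in KO.

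Matrix enzymes did not move as 1 group. LOX, which cross-links collagen, was at 23.7, 20.9 and 22.3 CPM in WT DMSO and at 27.6, 28.7 and 25.1 CPM in WT paclitaxel. In KO it was at 36.1, 37.2 and 32 CPM in DMSO and at 44, 43.4 and 37.9 CPM in paclitaxel. The 4 groups followed each other without overlap, and LOX rose by 0.28 ± 0.075 in WT (adjusted p = 0.00441) and by 0.25 ± 0.07 in KO (adjusted p = 0.00741). P4HA1 and P4HA2, the collagen prolyl 4-hydroxylases, did not pass in WT under TMM, at -0.04 and -0.01. Both passed as higher in WT with upper-quartile factors (0.094 and 0.122) and library totals (0.117 and 0.146). P4HA1 was lower in KO under TMM, at -0.09 ± 0.035 (adjusted p = 0.0321), but passed as higher with library totals (0.089, adjusted p = 0.0304). The lower call was also lost without any 1 of KO DMSO replicates 1 and 2 and KO paclitaxel replicates 2 and 3. P4HA2 fell by 0.31 ± 0.04 in KO (adjusted p = 1.26e-06). PLOD2, a lysyl hydroxylase, was at -0.17 ± 0.03 in WT under TMM (adjusted p = 5.93e-05) and at -0.07 in KO, where library totals gave 0.11. The latter value of PLOD2 passed without WT DMSO replicate 2 (-0.073) or KO DMSO replicate 1 (-0.1), and with no filter (-0.075).

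ADM, which encodes a vasodilator peptide, and NDRG1 gave the largest rises of the 40 genes in WT cells. ADM was at 33, 36.1 and 33.2 CPM in WT DMSO and at 92.2, 97.2 and 107 CPM in WT paclitaxel. KO samples were at 34.5, 33.8 and 31.1 CPM in DMSO and at 47.7, 46.6 and 50.5 CPM in paclitaxel. The DMSO samples of the 2 genotypes overlapped, while each treated WT sample was above every treated KO sample. ADM rose by 1.54 ± 0.055 in WT (adjusted p = 1.58e-13) and by 0.54 ± 0.055 in KO (adjusted p = 1.6e-07).

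VEGFA, the main inducer of vessel growth, was at 61.1, 51.5 and 56.9 CPM in WT DMSO and at 73.1, 71.9 and 65.3 CPM in WT paclitaxel. Its KO values were at 91.9, 99 and 98.3 CPM in DMSO and at 121, 122 and 111 CPM in paclitaxel. The 4 groups did not overlap, and VEGFA rose by 0.31 ± 0.06 in WT (adjusted p = 0.000827) and by 0.29 ± 0.06 in KO (adjusted p = 0.0011). ANGPTL4, an inhibitor of lipoprotein lipase, went from 1.31, 1.92 and 1.21 CPM to 2.89, 2.93 and 3.76 CPM in WT and from 1.36, 1.59 and 1.98 CPM to 2.78, 2.83 and 3.28 CPM in KO. It rose by 1.12 ± 0.16 in WT and by 0.85 ± 0.16 in KO, with every treated sample above every untreated one. CA9 lay between 0.0966 and 0.322 CPM in the 12 samples, and its log2 values of 0.35 ± 0.385 in WT and 0.22 ± 0.34 in KO were within their error, so a change was not detectable at this depth.

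NDRG1, a stress-induced gene used as a hypoxia marker, was at 19.4, 18.1 and 21 CPM in WT DMSO and at 55.1, 56.9 and 59.6 CPM in WT paclitaxel. For KO cells it was at 33.6, 31 and 47.5 CPM in DMSO and at 77.7, 76.6 and 75.2 CPM in paclitaxel. Treated and untreated samples were separate, and KO DMSO replicate 3 was well above its group. NDRG1 rose by 1.55 ± 0.15 in WT (adjusted p = 1.36e-05) and by 1.03 ± 0.14 in KO (adjusted p = 0.000164).

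KDM3A, a histone H3 lysine 9 demethylase induced by HIF, was at 47.2, 44.2 and 47 CPM in WT DMSO and at 81.7, 83.9 and 87.1 CPM in WT paclitaxel. In KO it was at 62.4, 60.5 and 57.8 CPM in DMSO and at 103, 109 and 108 CPM in paclitaxel. All 4 groups were separate, and KDM3A rose by nearly the same amount in both, 0.87 ± 0.04 in WT (adjusted p = 9.51e-16) and 0.83 ± 0.04 in KO (adjusted p = 1.25e-15). ANKRD37, a small ankyrin-repeat gene induced by HIF, rose by 0.29 ± 0.09 in WT (adjusted p = 0.00494) and by 0.28 ± 0.09 in KO (adjusted p = 0.00898), while UFSP2, which shares its exon bases, was at -0.18 and -0.22. The KO call of ANKRD37 was lost without KO paclitaxel replicate 1 (0.17, adjusted p = 0.106). BHLHE40, a transcriptional repressor of the clock and hypoxia responses, rose by 0.25 ± 0.06 in WT (adjusted p = 0.00137) and was at -0.04 ± 0.06 in KO (adjusted p = 0.557), where library totals gave 0.137 (adjusted p = 0.0439).

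**Figure D3:**
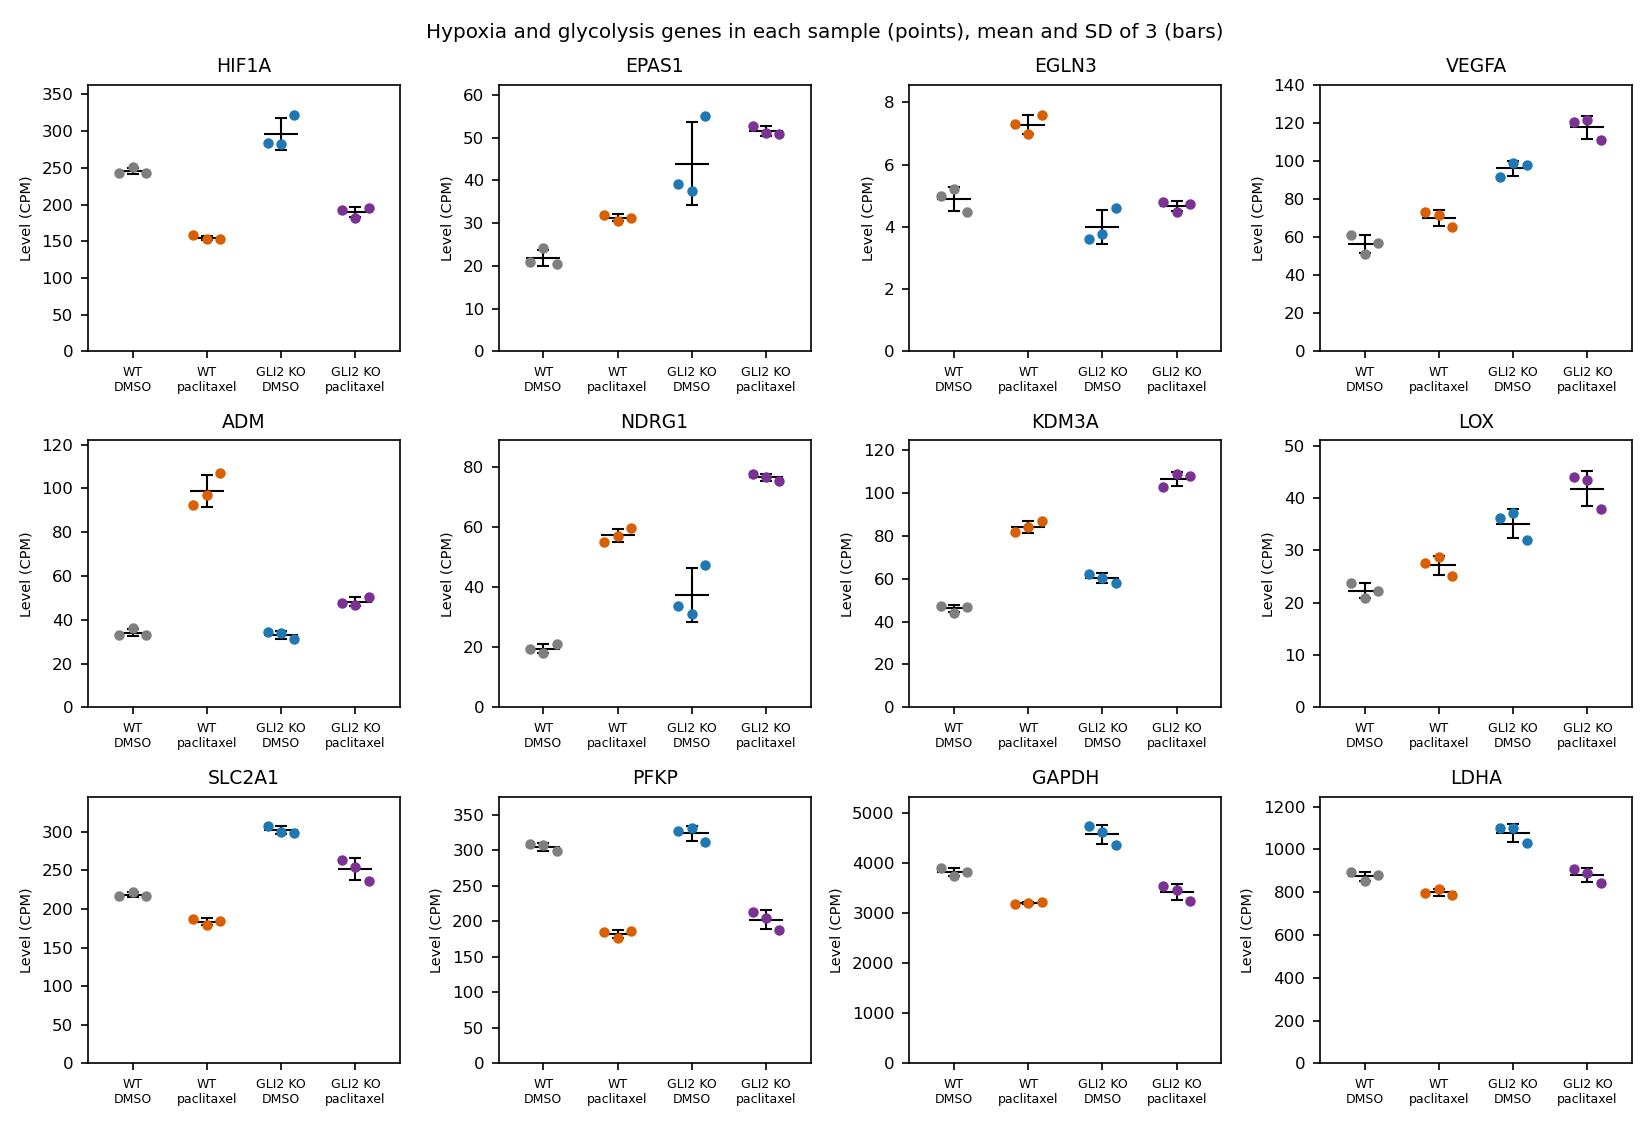
Level in CPM (axes start at 0) of 12 of the genes in each of the 12 samples, as points by group, with the mean and SD of 3 as bars. ADM is high only in WT paclitaxel, HIF1A and PFKP are low in paclitaxel in both genotypes, and GLI2 KO DMSO replicate 3 (the right point of its group) is high for EPAS1 and NDRG1.

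Of the 40 genes, more were higher than lower in the GLI2 KO cells compared with WT. The difference included HIF1A and EPAS1, all 3 transporters, both mitophagy receptors, VEGFA, LOX and the collagen hydroxylases. In DMSO 24 members were higher in the KO, 3 lower and 13 did not pass, where 41.6% of all genes tested passed, 22% higher and 19.6% lower. In paclitaxel 21 were higher, 8 lower and 11 did not pass, where 45.6% of all genes passed, 23.4% higher and 22.2% lower. Members' medians were 0.21 and 0.13, beside 0.01 and -0.01 over all genes. The higher share of members was thus above that of all genes in both treatments, as a count and with no test of the list. All 24 higher calls in DMSO and 19 of 21 in paclitaxel were made under all 4 scalings. Samples did not overlap between genotypes for 30 members in DMSO (48.6% of all genes) and 33 in paclitaxel (55.2%). Higher in both treatments were 18 members, and lower in both were ANKRD37, EGLN3 and PFKL. UFSP2, which shares exon bases with ANKRD37, was also lower in the KO. It was at -0.242 in DMSO and -0.286 in paclitaxel (adjusted p = 6.19e-06 and 5.52e-07), and its part in the ANKRD37 values was not tested. For all genes, the share called the same way in both treatments was not counted.

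**Figure D4:**
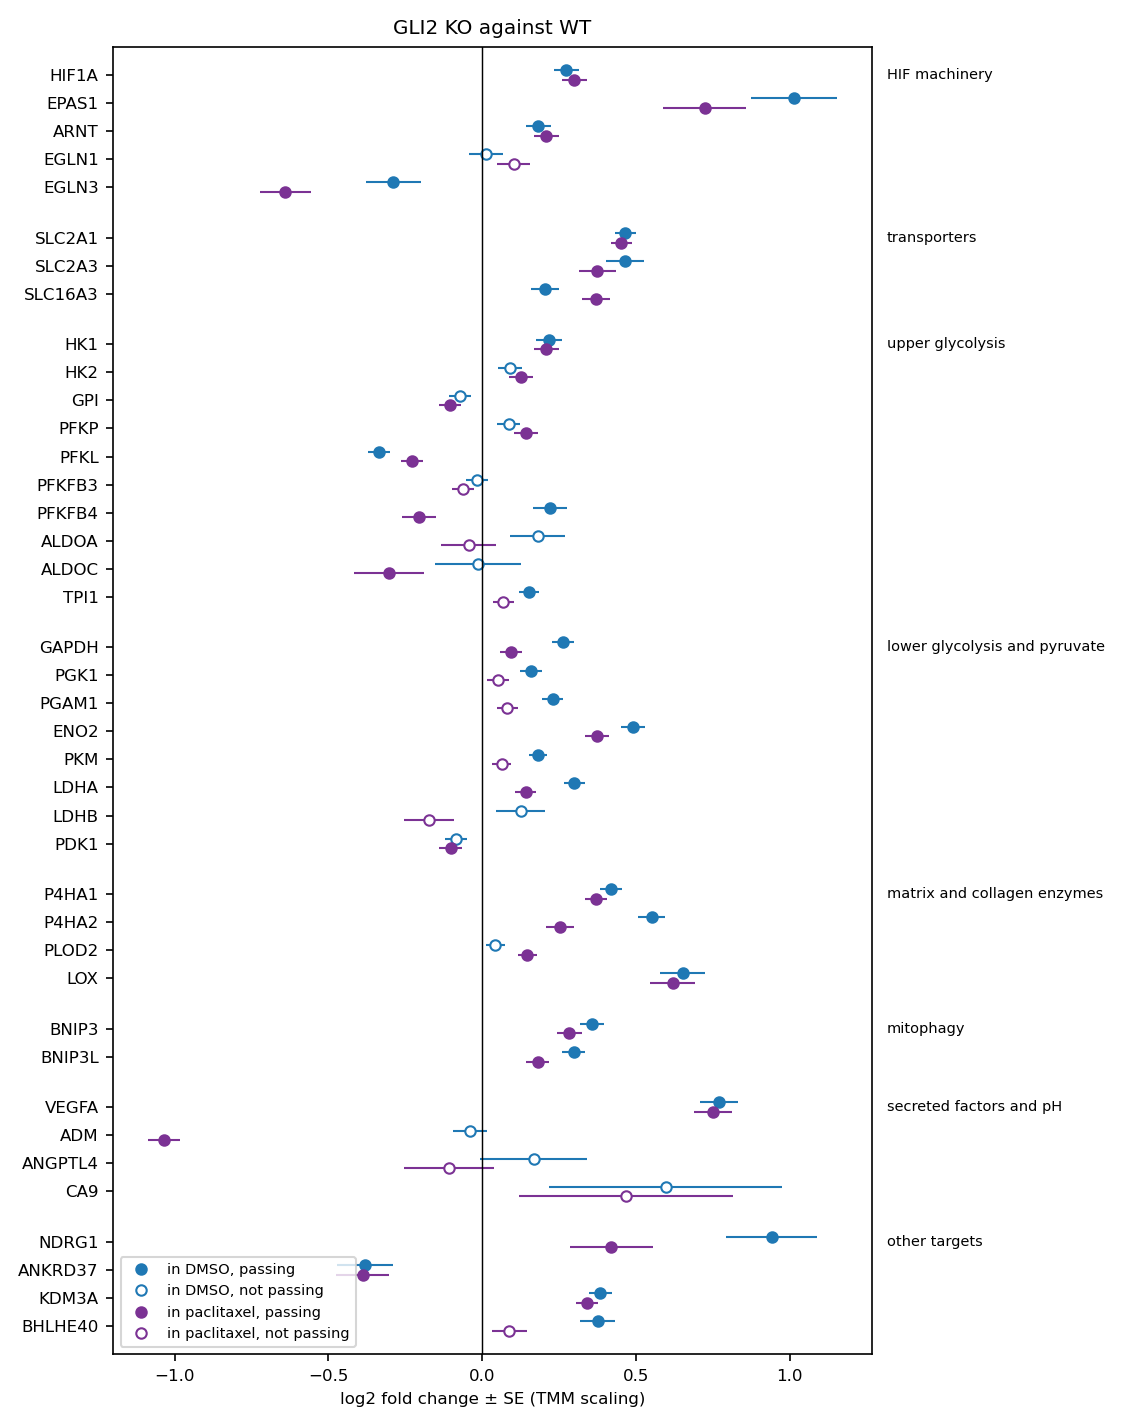
Log2 fold change of GLI2 KO against WT for each of the 40 genes, ordered by role, in DMSO (blue) and in paclitaxel (purple), with bars of 1 standard error and filled points for genes that passed. Most points lie right of 0, with EPAS1 and VEGFA far right in both and ADM far left only in paclitaxel.

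In the HIF machinery, EPAS1 was higher in the KO by 1.014 ± 0.14 in DMSO (adjusted p = 0.000349) and by 0.72 ± 0.135 in paclitaxel (adjusted p = 0.00207), with all KO samples above all WT samples. HIF1A was higher by 0.27 and 0.30 and ARNT by 0.18 and 0.21 (DMSO, then paclitaxel). EGLN3 was at -0.29 ± 0.09 in DMSO (adjusted p = 0.0109) and -0.64 ± 0.08 in paclitaxel (adjusted p = 6.29e-07), and the DMSO call was lost without WT DMSO replicate 2, KO DMSO replicate 1 or KO DMSO replicate 2. EGLN1 did not pass in either, at 0.01 and 0.10.

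The RNAs of the 3 transporters among the 40 genes were higher in the KO in both treatments. SLC2A1 was higher in the KO by 0.465 ± 0.034 in DMSO and by 0.45 ± 0.03 in paclitaxel (adjusted p = 1.92e-11 and 3.77e-11). SLC2A3 was higher by 0.46 and 0.37 and SLC16A3 by 0.20 and 0.37. In lower glycolysis 6 of 8 members were higher in DMSO, and 3 were higher and 1 lower in paclitaxel. ENO2 was higher by 0.49 ± 0.04 and 0.37 ± 0.04, LDHA by 0.30 and 0.14 and GAPDH by 0.26 and 0.09 (DMSO, then paclitaxel). The GAPDH call in paclitaxel (adjusted p = 0.0405) was not made under all scalings, and was lost without any 1 of the WT paclitaxel replicates 1 to 3 and KO paclitaxel replicates 1 and 2. In upper glycolysis 3 of 10 were higher and 1 lower in DMSO, and 3 higher and 4 lower in paclitaxel. Of all genes tested, 22% were higher and 19.6% lower in DMSO, and 23.4% and 22.2% in paclitaxel. HK1 was higher by 0.22 and 0.21, while PFKL was lower, at -0.335 ± 0.035 and -0.23 ± 0.04.

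VEGFA was higher in the KO by 0.77 ± 0.06 in DMSO (adjusted p = 4.38e-07) and by 0.75 ± 0.06 in paclitaxel (adjusted p = 4.77e-07). LOX was higher by 0.65 ± 0.07 and 0.62 ± 0.07. P4HA1 was higher by 0.42 and 0.37, and P4HA2 by 0.55 and 0.25. For each of these 4 genes every KO sample was above every WT sample of its treatment. BNIP3 was higher by 0.36 and 0.28 and BNIP3L by 0.30 and 0.18. NDRG1 was higher by 0.94 ± 0.15 in DMSO (adjusted p = 0.000847) and by 0.42 ± 0.135 in paclitaxel (adjusted p = 0.0329), and leaving out any 1 of the 6 paclitaxel samples ended the latter call.

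Genes lying near some members differed by genotype as well, so the median of the 50 neighbouring tested genes stands beside those members. It was -0.47 in DMSO around EGLN3 (own value -0.29), -0.30 around ANKRD37 (own -0.38), 0.34 around NDRG1 (own 0.94) and 0.29 around KDM3A (own 0.38). Around PDK1 it was -0.51, with an own value of -0.08, and around EGLN1 it was -0.20, with an own value of 0.01. Around EPAS1 it was -0.04, around VEGFA 0.05, around HIF1A -0.12 and around LOX 0.09, so the neighbours of these 4 did not share the sizes of their differences. Around GAPDH, ENO2 and SLC2A3 on chromosome 12 it was 0.14 (own values 0.26, 0.49 and 0.46). Around TPI1 on the same chromosome it was 0.15, with an own value of 0.15. The part of the neighbourhood in the members' differences was not tested.

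The response to paclitaxel differed between genotypes for 7 members, all with a lower log2 value in the KO, where 13.5% of all genes tested passed, 6.56% higher and 6.93% lower. No member had a higher value in edgeR at the adjusted threshold, 3 did at an unadjusted p below 0.05, and DESeq2 gave 0. Lower at an unadjusted p were 14, and DESeq2 called 8 lower. The member median of the difference was -0.09, beside -0.02 over all genes. ADM differed most, by -0.995 ± 0.077 (adjusted p = 6.52e-07), so that its level in paclitaxel was lower in the KO by a log2 value of -1.035 ± 0.053 (adjusted p = 3.89e-11), while the DMSO levels did not pass (-0.04 ± 0.06).

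PFKFB4, a bifunctional enzyme like PFKFB3, was at 22.8, 21.7 and 22.6 CPM in WT DMSO and at 30.7, 30.8 and 29.3 CPM in WT paclitaxel. KO samples were at 24.9, 24.2 and 29.1 CPM in DMSO and at 27.6, 26.3 and 24.9 CPM in paclitaxel. The WT groups were separate and the KO groups overlapped. PFKFB4 rose by 0.43 ± 0.055 in WT and was at 0.01 ± 0.06 in KO, a difference of -0.43 ± 0.08 (adjusted p = 0.000921). With library totals the KO value of PFKFB4 was 0.183 and passed (adjusted p = 0.0096). P4HA2 was at 18, 19 and 19.9 CPM in WT DMSO and at 18.7, 18.9 and 19 CPM in WT paclitaxel. In KO it went from 26.9, 28.5 and 28 CPM in DMSO to 23.2, 21.7 and 22.5 CPM in paclitaxel, so that the KO samples were above all WT samples in both. Its difference was -0.30 ± 0.06 (adjusted p = 0.00258). BHLHE40 differed by -0.29 ± 0.08 (adjusted p = 0.0288), a call lost without WT paclitaxel replicates 1 or 3, KO DMSO replicate 1 or KO paclitaxel replicate 3 (-0.295 to -0.241). EGLN3, at -0.35 ± 0.12 (adjusted p = 0.0587), passed without WT DMSO replicate 2 or KO DMSO replicates 1 or 2.

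GAPDH, LDHA and PGAM1 differed by -0.17, -0.16 and -0.15 (adjusted p = 0.0322, 0.0291 and 0.0419), and their treated samples lay nearer between genotypes than their DMSO samples. The LDHA call was lost in 7 of the 12 fits that left out 1 sample, and the GAPDH and PGAM1 calls in 9 each, while ADM, PFKFB4 and P4HA2 passed in all 12. The PGAM1 call was also lost with RLE factors (-0.14, adjusted p = 0.0565) and library totals (-0.128, adjusted p = 0.0536), and the other 6 were made under all 4 scalings. The count of 7 ranged from 3, without KO paclitaxel replicate 3, to 11, without KO DMSO replicate 3, and was 4 without WT DMSO replicate 3, any 1 WT paclitaxel sample, KO DMSO replicate 1 or KO paclitaxel replicate 2. Without KO DMSO replicate 3, 1 member was higher (SLC16A3, 0.206, adjusted p = 0.0193, which also passed at 0.2 without KO paclitaxel replicate 3) and NDRG1 passed (-0.31, adjusted p = 0.00121). The main value of NDRG1 was -0.52 ± 0.20 (adjusted p = 0.139).

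Ratios of related genes within a library do not depend on scaling, and 10 were tested by exact two-sided permutation within the other factor, with adjustment over 20 tests. The smallest p this design allows is 0.005. Paclitaxel changed 6 ratios and genotype changed 6. EPAS1/HIF1A was 0.086, 0.0961 and 0.0844 in WT DMSO and 0.203, 0.199 and 0.204 in WT paclitaxel. In KO it was 0.138, 0.133 and 0.171 in DMSO and 0.273, 0.28 and 0.261 in paclitaxel. The 4 groups were separate, and the ratio was higher in paclitaxel by a mean log2 value of 1.04 and in the KO by 0.57 (exact permutation p = 0.005 and adjusted p = 0.00909 for each).

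SLC2A3/SLC2A1 rose with paclitaxel by 0.54 (exact permutation p = 0.005, adjusted p = 0.00909), from 0.145 to 0.17 across the 6 DMSO samples to 0.22 to 0.251 across the 6 treated ones. The genotype value was -0.04 (exact permutation p = 0.41). EGLN3/EGLN1 rose with paclitaxel by 0.60 and was lower in the KO, at -0.53 (exact permutation p = 0.005 and 0.01). PFKP/PFKL was 2.39 to 2.62 in WT and 3.12 to 3.27 in KO samples, higher in the KO by 0.40 (exact permutation p = 0.005), and its paclitaxel value was 0.01 (exact permutation p = 0.765). Both phosphofructokinase genes therefore moved by like amounts with the drug and by unlike amounts with genotype.

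BNIP3L/BNIP3 fell with paclitaxel by 0.19 (exact permutation p = 0.005), and HK2/HK1 was higher by 0.07 with paclitaxel and lower in the KO, at -0.105 (exact permutation p = 0.005 for each). ALDOC/ALDOA rose with paclitaxel by 1.135 and LDHA/LDHB was higher in the KO by 0.24, and both rest on genes whose sequence is shared with another gene. P4HA2/P4HA1 and PFKFB4/PFKFB3 did not pass for either factor. Without KO DMSO replicate 3, PFKFB4/PFKFB3 passed for paclitaxel (0.194) and BNIP3L/BNIP3 for genotype (-0.125).

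**Figure D5:**
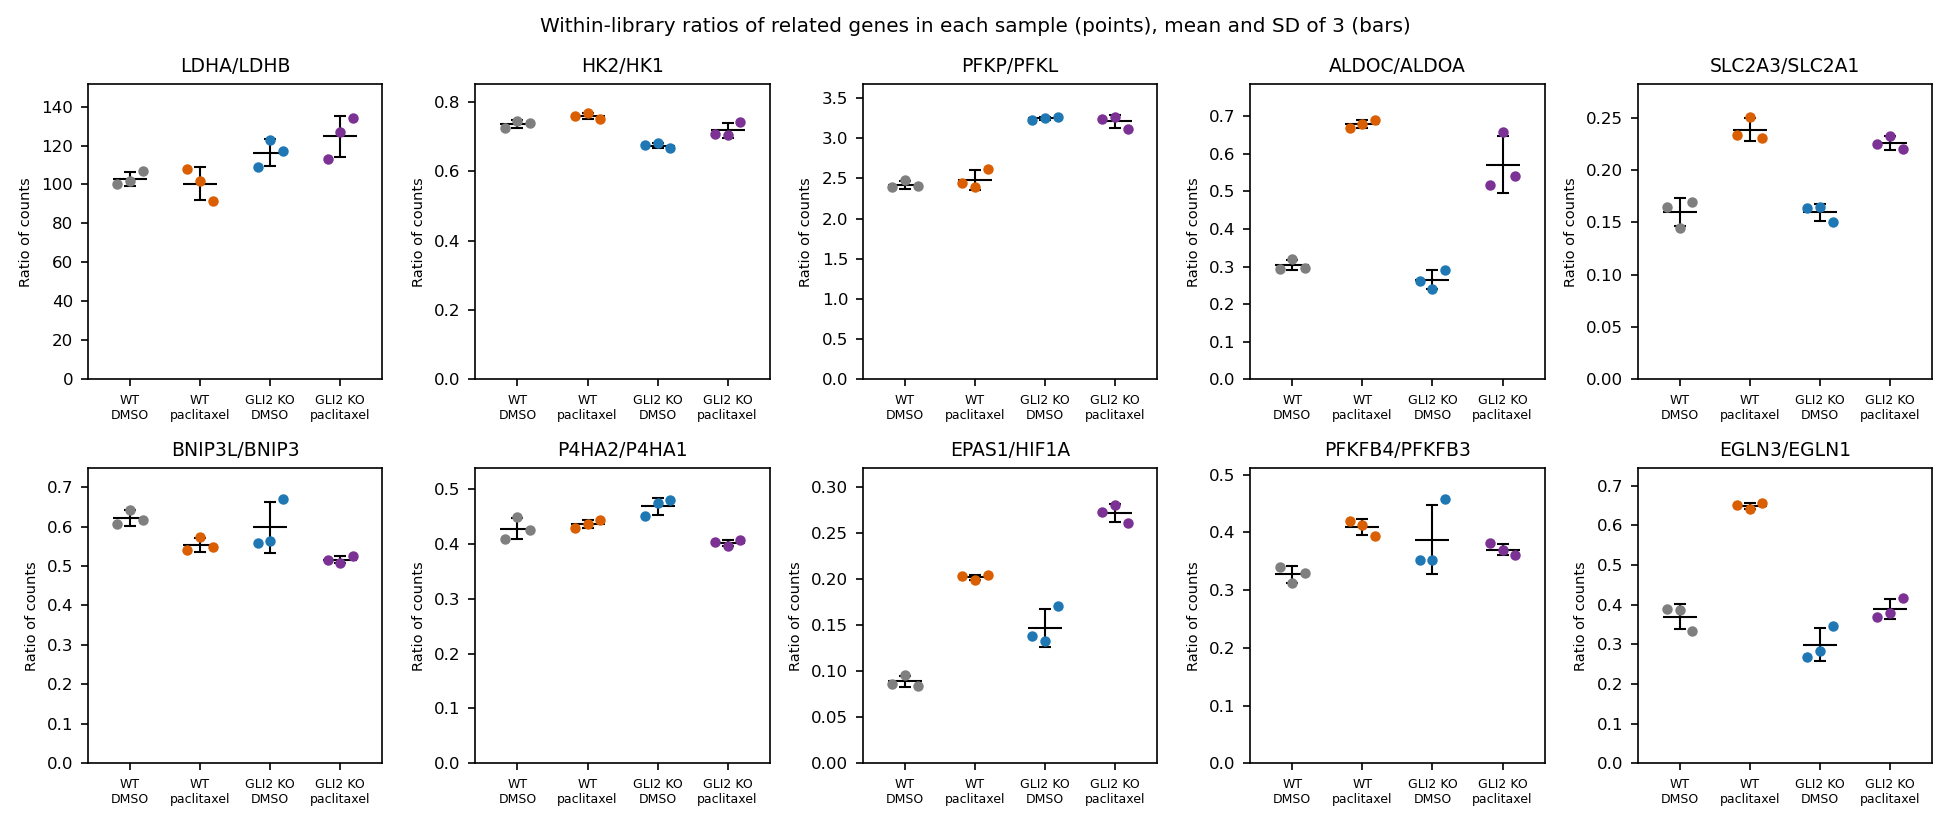
Ratio of counts of 10 pairs of related genes in each of the 12 samples, as points by group, with the mean and SD of 3 as bars (axes start at 0). EPAS1/HIF1A and SLC2A3/SLC2A1 are higher in paclitaxel in both genotypes, and PFKP/PFKL parts WT from KO.

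Other genes of the pathway were counted in the same fit. They were listed from textbook knowledge, but with earlier results of these data known, so their counts and shares only describe these lists. Of 17 further HIF machinery genes, 3 were higher and 9 lower with paclitaxel in WT, and 3 and 10 in KO. In the KO against WT, 2 were higher and 2 lower in each treatment. The share passing with paclitaxel was 70.6% in WT and 76.5% in KO, beside 66.7% and 65.2% of all genes tested. Between genotypes it was 23.5% in each treatment, below the 41.6% (DMSO) and 45.6% (paclitaxel) of all genes. CITED2, a HIF-induced protein that competes with HIF for the coactivators, was at 97.8, 107 and 103 CPM in WT DMSO and at 226, 231 and 262 CPM in WT paclitaxel. It rose by 1.225 ± 0.053 in WT and by 0.83 ± 0.05 in KO, and the effects differed by -0.40 ± 0.07 (adjusted p = 0.00276). The coactivator genes EP300 (0.53 in WT, 0.42 in KO) and CREBBP (0.40 and 0.42) rose as well, and ARNT2, a paralogue of ARNT, was lower (-0.63 and -0.65).

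Of 40 further HIF targets, 39 were tested. With paclitaxel 13 were higher and 16 lower in WT, and 12 and 17 in KO. In the KO 15 were higher and 7 lower in DMSO, and 16 and 9 in paclitaxel. The share passing with paclitaxel was 74.4% in each genotype, beside 66.7% (WT) and 65.2% (KO) of all genes. Between genotypes it was 56.4% in DMSO and 64.1% in paclitaxel, beside 41.6% and 45.6% of all genes. STC2, a secreted glycoprotein, was at 2.38, 1.87 and 2.35 CPM in WT DMSO and at 7.41, 6.51 and 5.89 CPM in WT paclitaxel. In KO it went from 1.88, 2.12 and 2.12 CPM to 12.9, 12.4 and 12.8 CPM, and its rise was larger there by 1.06 ± 0.14 (adjusted p = 1.32e-05), in the opposite direction to ADM. HMOX1, heme oxygenase 1, had a lower value in the KO like ADM, at 1.305 in WT and 0.28 in KO. The difference was -1.03 ± 0.13 (adjusted p = 0.00016). Its KO samples were at 9.6, 9.99 and 7.93 CPM in DMSO and at 12.2, 11.9 and 9.33 CPM in paclitaxel. These HMOX1 values overlapped, while the KO groups of ADM were separate. TMEM45A, a transmembrane protein gene, was higher in the KO by 1.48 in DMSO and by 1.29 in paclitaxel. LOXL2, which acts on collagen like LOX, fell with paclitaxel by 0.97 in WT and by 1.05 in KO, where LOX rose.

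Of 38 further genes of glycolysis and pyruvate use, 35 were tested. With paclitaxel 11 were higher and 17 lower in WT, and 11 and 18 in KO. In the KO 15 were higher and 5 lower in DMSO, and 15 and 6 in paclitaxel. The share passing with paclitaxel was 80% in WT and 82.9% in KO, beside 66.7% and 65.2% of all genes. Between genotypes it was 57.1% in DMSO and 60% in paclitaxel, beside 41.6% and 45.6% of all genes. PDK4, a pyruvate dehydrogenase kinase like PDK1, was at 0.502, 0.428 and 0.519 CPM in WT DMSO and at 2, 2.56 and 2.65 CPM in WT paclitaxel. Its KO values were at 2.76, 3.05 and 4.18 CPM in DMSO and at 6.09, 5.93 and 7.14 CPM in paclitaxel. All 4 groups were separate, with a rise of 2.31 ± 0.19 in WT and of 0.94 ± 0.13 in KO, and a difference of -1.37 ± 0.23 (adjusted p = 0.000562). ENO1, the main enolase, was at 1410, 1350 and 1400 CPM in WT DMSO and at 3080, 3040 and 2850 CPM in KO DMSO. It was higher in the KO by 1.11 ± 0.035 in DMSO (adjusted p = 2.53e-18) and by 0.92 ± 0.035 in paclitaxel. Both values were above those of the 8 members of lower glycolysis. Medians of neighbouring genes were taken for the members only. The part of the neighbourhood in the differences of ENO1 and the other further genes was thus not tested.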

How the data were processed

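RNA of 12 samples was read from the deposited table of whole-number counts. Its lowest row total is 20. Tools listed in the submitters' processing notes are STAR, Trim Galore 0.6.7 and DESeq2 1.36.0, with build hg38, and the counter, annotation and strand setting were not given in the sources used here. A normalized table from the authors equals these counts divided by 1 factor per sample (largest relative deviation 9.94e-15) and was not used. Groups came from the titles.

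Counts were tested with edgeR 4.0.16 (glmQLFit robust, glmQLFTest, TMM, filterByExpr with a minimum count of 10, which kept 21974 genes, 87.7%), in 1 fit of all 12 samples with 8 residual degrees of freedom and 5 contrasts. A standard error is |log2 fold change| divided by sqrt(F). All tests are two-sided, and 3 against 3 samples cannot give an exact permutation p below 0.1. The test was checked on simulated counts. Alternatives tried were library totals, RLE or upper-quartile factors, no filter, a minimum count of 50, DESeq2 1.42.0, only the 2 groups compared, each sample left out, and 0.5 counts added to ratios. Promoters are RefSeq GRCh38.p14 and exon lengths and neighbours GENCODE 29 on GRCh38. All 40 members may be named, and of each further list up to 3 passing genes per comparison with the largest change and at least 5 CPM in a group. The members and lists were chosen with earlier results of these data known. Listed genes not found in the table were not analysed here.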

Additional observations from a re-analysis of the deposited data

Results flagged for a closer look

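The response to paclitaxel differed between the genotypes, by the interaction term in edgeR's quasi-likelihood test, for 7 of the 40 genes. Of all 21974 genes tested, 13.5% passed, 6.56% with a higher value in the KO and 6.93% with a lower one. The log2 difference (effect in GLI2 KO minus effect in WT) was -0.995 ± 0.077 for ADM, -0.427 ± 0.078 for PFKFB4, -0.297 ± 0.063 for P4HA2 and -0.288 ± 0.08 for BHLHE40. It was -0.169 ± 0.052 for GAPDH, -0.159 ± 0.048 for LDHA and -0.149 ± 0.048 for PGAM1. The PGAM1 call was lost with RLE factors (-0.14) and library totals (-0.128). Leaving out each sample in turn gave 3 to 11 members with a lower value. The BHLHE40, GAPDH, LDHA and PGAM1 calls were lost in some of these fits, and those of ADM, PFKFB4 and P4HA2 in none.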

How the results depend on the processing

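The calls for paclitaxel rest on the scaling more than on any library. With library totals 10 members were lower in WT (17 with TMM) and 19 were higher in GLI2 KO (10 with TMM). Members higher and lower were 14 and 17 in WT with TMM, 18 and 12 (upper-quartile factors) and 20 and 10 (library totals), and in KO 10 and 21, 12 and 17, and 19 and 16. Over all genes the split moved from 7613 and 7047 to 9905 and 4731 (upper quartile) or 10352 and 4295 (totals) in WT, from 7250 and 7077 to 9324 and 4791 or 10398 and 3831 in KO, and for the difference of effects from 1441 and 1522 to 1770 and 1249 with totals. In DMSO 5 members were lower in the KO with upper-quartile factors and with library totals (3 with TMM).

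Values that changed direction, called in 1 of the 2 settings, were in WT HK1 (0.098), HK2 (0.141), PKM (0.109), LDHA (0.028), PDK1 (0.099), P4HA1 (0.117) and P4HA2 (0.146) with library totals, and HK2 (0.118), PKM (0.085), LDHA (0.004), P4HA1 (0.094) and P4HA2 (0.122) with upper-quartile factors. In KO they were EGLN1 (0.028), HK1 (0.111), PKM (0.01), PDK1 (0.101), P4HA1 (0.089), PLOD2 (0.111) and BHLHE40 (0.137) with library totals and P4HA1 (0.035) with upper-quartile factors. The signs of 80 further values differed where neither setting called them.

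Leaving out each sample gave 14 to 14 higher and 17 to 17 lower members for paclitaxel in WT, 8 to 11 and 19 to 23 in KO, 24 to 26 and 2 to 4 for KO against WT in DMSO, 19 to 24 and 5 to 8 in paclitaxel, and 0 to 1 and 3 to 11 for the difference of effects. The genes called in all numbered 13895 to 15381, 13507 to 14658, 8070 to 9355, 8837 to 10743 and 2128 to 3443. Ratios near 0 changed sign without 1 sample: P4HA2/P4HA1 with genotype (-0.007 to 0.026), LDHA/LDHB (-0.001 to 0.062) and PFKP/PFKL (-0.01 to 0.023) with paclitaxel, and PFKFB4/PFKFB3 with genotype (-0.016 to 0.077), and none of these passed. The cause of these changes was not tested, beyond the smaller number of samples. No paired analysis was possible because the titles carry library numbers, which no samples share, and no replicate numbers. In KO samples these numbers alternate between treatments, and whether neighbouring numbers mark pairs is not stated. Depth limits CA9, at 0.0966 to 0.322 CPM.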
